A study of Mus musculus with 4 samples.

Results

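The genes described here are 30 genes of mitochondrial and peroxisomal fatty acid oxidation, chosen by symbol among the 32285 genes of single-cell RNA-seq count matrices from mouse bone. All 30 symbols were found. The 4 libraries came from 20-week-old male C57BL/6J mice and were collected at week 2. One callus library and one trabecular bone library were controls, and one library of each tissue came from mice given prednisolone, a synthetic glucocorticoid (GC), at 6.25 mg/kg/d. The sample descriptions name a subcutaneous slow-release pellet or a placebo pellet, whereas the study's methods describe daily injection for the fracture model, so the route in the callus mice is uncertain. The callus mice also carried a fracture, so tissue and fracture cannot be told apart.

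Each condition of each tissue was a single library, so no difference between conditions could be tested and no p-value is given. Levels are unique molecular identifier (UMI) counts summed over the cells of a class and given as CPM, the counts scaled to a fixed total per class. The 95% intervals are exact Poisson intervals, or exact conditional intervals for a ratio, and cover counting error only, not the spread between mice. The chemistry counts 3′ ends and the values are not divided by gene length, so a level is compared between classes or libraries for the same gene and never between genes. A gene was called higher or lower when the ratio of CPM + 5 passed 1.5-fold with at least 50 UMIs over both sides.

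Long-chain fatty acids are activated to acyl-CoA by synthetases, carried across the mitochondrial membranes as carnitine esters, and shortened in rounds of oxidation, hydration, a second oxidation and thiolysis. Electrons from the acyl-CoA dehydrogenases pass through the electron transfer flavoprotein and its oxidoreductase to the respiratory chain. Peroxisomes run a parallel pathway on very-long-chain and branched fatty acids. Osteoblasts, macrophages and osteoclasts are all known to burn fatty acids to different degrees.

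The 30 members comprised 6 genes of the carnitine shuttle, 4 long-chain acyl-CoA synthetases, 4 acyl-CoA dehydrogenases, 5 genes of hydration, second oxidation and thiolysis, 3 isomerases and reductases, 3 genes of electron transfer, 4 peroxisomal enzymes and the regulator Ppara. RefSeq promoter windows (GRCm38.p6, 250 bases before to 50 after the start) were present for 25 members, in 26 windows, since Acsl1 has 2 starts. Upstream stretches are printed on the plus strand for Acsl1, Cpt1a and Etfb and for the head-to-head pair Hadha and Hadhb. Acsl1, Cpt1a and Etfb were called with GC in some classes, as were other members not printed. Capitals mark the nuclear receptor core motif AGGTCA, the glucocorticoid receptor core motif AGAACA or the GC box GGGCGG (a GC-rich motif bound by Sp factors, unrelated to the abbreviation for glucocorticoid), on either strand. None of the printed bases lies in a GENCODE exon.
Acsl1, first start, chr8:46470787-46471036: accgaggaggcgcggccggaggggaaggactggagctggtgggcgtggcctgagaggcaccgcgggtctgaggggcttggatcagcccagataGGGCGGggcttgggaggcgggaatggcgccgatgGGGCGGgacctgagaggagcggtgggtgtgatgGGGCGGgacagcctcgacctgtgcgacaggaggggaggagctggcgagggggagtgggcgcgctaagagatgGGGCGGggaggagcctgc
Acsl1, second start, chr8:46490716-46490965: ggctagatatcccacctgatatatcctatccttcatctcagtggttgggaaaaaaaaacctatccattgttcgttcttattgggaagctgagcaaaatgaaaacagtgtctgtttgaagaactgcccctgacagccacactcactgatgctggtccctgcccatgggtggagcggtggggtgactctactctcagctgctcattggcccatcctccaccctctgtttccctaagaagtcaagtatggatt
Cpt1a, chr19:3323157-3323256: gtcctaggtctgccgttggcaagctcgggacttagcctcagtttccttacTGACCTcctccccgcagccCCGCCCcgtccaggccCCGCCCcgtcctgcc
Etfb, chr7:43443822-43444071: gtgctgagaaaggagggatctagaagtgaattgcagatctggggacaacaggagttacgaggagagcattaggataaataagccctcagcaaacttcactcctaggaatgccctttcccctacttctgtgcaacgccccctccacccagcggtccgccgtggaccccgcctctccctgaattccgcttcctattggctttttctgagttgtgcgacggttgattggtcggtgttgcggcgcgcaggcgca
Hadha and Hadhb, chr5:30155163-30155247: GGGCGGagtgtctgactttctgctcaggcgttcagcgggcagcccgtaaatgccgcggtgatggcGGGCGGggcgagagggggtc

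The first Acsl1 stretch held 4 GC boxes and was 72.0% G or C, whereas the second held none and was 48.4% G or C. The Cpt1a stretch held 1 AGGTCA match and 2 GC boxes, and lies inside the GENCODE gene, which starts at 3322334. It is 100 bases long, only part of its upstream window, whereas the Acsl1 and Etfb stretches are 250 bases each. Hadha and Hadhb, whose proteins form the trifunctional protein, start 85 bases apart on opposite strands in GENCODE, and this shared stretch held 2 GC boxes. Their RefSeq starts have 272 bases between them, so the printed stretch is only part of that gap. Over whole windows, the GC box was found in 21 of the 26 member windows against 35.7% of all 32851 windows. AGGTCA was found in 5 windows (Acadm, Acadvl, Cpt1a, Cpt1c and Echs1; 16.3% of all windows) and AGAACA in 2 (Acsl5 and Hadh; 19.0% of all windows). The direct repeat of the PPAR and RXR receptors with a spacer of 1 base, in a strict and a relaxed form, the estrogen-related receptor motif TCAAGGTCA, and the palindrome of the glucocorticoid receptor, in a strict and a relaxed form, all searched on both strands, were in no member window and in at most 0.475% of all windows. The core motifs are contained in some of these longer motifs and were searched after the longer motifs had given no match. A match describes letters in a window and is no evidence of binding.

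Sequencing gave 95852254 UMIs in control callus, 64388215 in GC callus, 41239842 in control and 45876714 in GC trabecular bone, and 6714, 6890, 3832 and 4604 cells passed the filters. Cells were clustered within each tissue without the members, and clusters were named from marker genes, so the classes are osteoclast-like, chondrocyte-like and so on, and the suffix is omitted hereafter. The callus gave 17 classes and trabecular bone 10 with enough cells in both libraries. Highest and lowest classes are named among these. Classes with enough cells in the control library only are left out of the rankings, such as 18 granulocyte-monocyte progenitors of callus. The 30 members summed to 1601 CPM there, against 1507 CPM in osteoclasts of control callus. Between 7 and 11 cell barcodes were shared by any pair of libraries. The trabecular libraries were marrow-like: osteoblast markers summed to 21.8 and 13.4 CPM there against 11504 and 17306 CPM in callus, with Dmp1 and Mepe at 0 in both trabecular libraries, and no osteoblast or osteoclast class was found. The GC trabecular library did hold a stromal class of 35 cells. It had UMIs for all 14 stromal markers and 9 of 11 osteoblast markers (1762 CPM), with mature neutrophil markers at 27702 CPM. Its members summed to 1161 CPM, and without a control class of enough cells it was not compared with GC. Of 6 glucocorticoid response genes, Fkbp5, Tsc22d3, Zbtb16 and Klf9 were higher with GC over all trabecular cells, Fkbp5 from 16.0 to 59.99 CPM. Over all callus cells Sgk1 alone was called, from 534 to 972 CPM, and Fkbp5 went from 19.7 to 31.1 CPM, within the call limit. Callus classes taken apart gave further calls. Among them, Fkbp5 was higher in monocytes, B cells and NK cells, Klf9 in macrophages and osteoclasts, and Tsc22d3 in osteoclasts. Per1 was lower in monocytes, B cells and immature neutrophils, and Sgk1 was lower in NK cells. The GC callus library was deposited with called barcodes only, so its free RNA could not be measured, and free RNA, read from cartilage or neutrophil markers in lymphocytes, was estimated at 7.82%, 4.48% and 3.79% of cell UMIs in the control callus, control trabecular and GC trabecular libraries.

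The carnitine shuttle differed most between classes through its entry enzyme and its carrier. Cpt1a, which makes long-chain acylcarnitine at the outer membrane, was lowest in cartilage, at 4.87 CPM in chondrocytes of control callus and 5.66 CPM of GC callus. It was highest in mature neutrophils of control callus (127 CPM) and in NK cells of GC callus (69.0 CPM), and these 2 classes had overlapping intervals in both libraries. Mononuclear phagocytes, the macrophage and monocyte clusters together, had 56.1 and 39.8 CPM in control and GC callus, and bone-forming cells, the stromal and osteoblast clusters together, had 20.0 and 11.2 CPM. In trabecular bone Cpt1a was highest in monocytes, at 68.2 CPM in the control and 77.998 CPM in the GC library. For Cpt1a, 16 pairs of callus classes were at least 4-fold apart in both libraries.

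Slc25a20, the carnitine-acylcarnitine carrier of the inner membrane, was highest in dendritic cells of callus, at 271 CPM in the control and 102 CPM in the GC library, in classes of only 20 and 23 cells. It was lower in chondrocytes (11.3 and 18.2 CPM). In trabecular bone it was highest in mature neutrophils, at 41.1 and 36.1 CPM, and low in erythroid cells (3.24 and 5.05 CPM). Crat, which makes short-chain acylcarnitines, was highest in trabecular erythroid cells, at 39.8 and 35.3 CPM. In callus erythroid cells it was at 53.4 and 42.7 CPM from only 11 and 6 UMIs, with intervals that overlapped those of osteoclasts (33.4 and 30.2 CPM). The muscle isoform Cpt1b reached at most 9.70 CPM in any control callus class and 28.5 CPM in any GC callus class, both erythroid and from 2 and 4 UMIs. The brain isoform Cpt1c was a mesenchymal transcript here: stromal cells held 22.1 and 17.5 CPM in control and GC callus, chondrocytes 4.98 and 3.74 CPM, and monocytes 0.390 and 0.470 CPM. Cpt2, the inner-membrane transferase, was at 7.04 and 5.66 CPM over all callus cells and 4.22 and 3.84 CPM over all trabecular cells.

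The 4 synthetases had 4 different class patterns. Acsl1 was high in callus erythroid cells (170 and 121 CPM in the control and GC library, from 35 and 17 UMIs), osteoclasts (121 and 97.0 CPM) and mature neutrophils (102 and 115 CPM), the first 2 with overlapping intervals, and low in NK cells (9.22 and 11.1 CPM). Acsl3, a synthetase of the endoplasmic reticulum and lipid droplets, was at 55.1 and 52.2 CPM in hypertrophic chondrocytes and 46.2 and 85.2 CPM in B cells. It was also present in osteoclasts (values below) but at 5.84 and 3.56 CPM in mature neutrophils. Acsl4, which prefers arachidonic acid, was high in callus monocytes (127 and 180 CPM) and mature neutrophils (143 and 111 CPM). Acsl5 was highest in callus mature neutrophils, at 101 and 132 CPM, and lowest in control chondrocytes, at 4.81 CPM (6.45 CPM with GC).

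Among the acyl-CoA dehydrogenases, Acadm, Acads and Acadvl shared osteoclasts as their highest callus class, and Acadl had its highest values elsewhere. Acadm, the medium-chain enzyme, was highest in osteoclasts (87.8 and 92.1 CPM in control and GC callus) and lowest in mature neutrophils (1.46 and 4.27 CPM). Acads, the short-chain enzyme, was also highest in osteoclasts (30.2 and 21.9 CPM), as was Acadvl, the very-long-chain enzyme (41.2 and 37.1 CPM). Acadl, the long-chain enzyme, was at 87.3 and 92.5 CPM in erythroid cells (18 and 13 UMIs) and 83.1 and 82.2 CPM in endothelial cells, with overlapping intervals, and was lowest in mature neutrophils (11.2 and 10.7 CPM). In trabecular bone Acadl was at 110 and 114 CPM in granulocyte-monocyte progenitors.

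Among the genes of hydration, second oxidation and thiolysis, Hadha and Hadhb were broadly present and the others were not. Hadha lay between 34.6 CPM in mature neutrophils and 104 CPM in osteoclasts of control callus, and between 30.1 CPM in hypertrophic chondrocytes and 117 CPM in osteoclasts of GC callus. Hadhb had a similar width, from 30.1 CPM in chondrocytes to 124 CPM in NK cells of control callus. Acaa2, the mitochondrial thiolase, was at least 4-fold higher in osteoclasts than in each of 14 other callus classes in both libraries: osteoclasts held 112 and 105 CPM, the next class, erythroid cells, 38.8 and 28.5 CPM with intervals that did not overlap those of osteoclasts, and hypertrophic chondrocytes 3.78 and 1.99 CPM. Hadh, the short-chain hydroxyacyl-CoA dehydrogenase, was high in osteoclasts (65.9 and 52.2 CPM) and chondrocytes (59.4 and 47.1 CPM) and low in monocytes (7.02 and 4.70 CPM). Echs1, the short-chain hydratase, was highest in osteoclasts (73.2 and 63.4 CPM) and, in trabecular bone, in granulocyte-monocyte progenitors (121 and 109 CPM).

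The isomerases Eci1 and Eci2 handle unsaturated chains and were both highest in callus osteoclasts, Eci1 at 30.6 and 27.8 CPM in the control and GC library and Eci2 at 58.1 and 52.2 CPM. Eci2 is also peroxisomal and is counted here with the mitochondrial genes. Decr1, the dienoyl-CoA reductase, was at 29.2 and 17.5 CPM in stromal cells, 22.8 and 19.1 CPM in chondrocytes, 16.5 and 8.78 CPM in osteoclasts and 1.95 and 1.41 CPM in monocytes of callus. In trabecular bone Decr1 was at 21.7 and 21.8 CPM in granulocyte-monocyte progenitors and at 10.6 and 11.3 CPM in monocytes. Etfa and Etfb encode the subunits of the electron transfer flavoprotein. Among the compared callus classes Etfa was highest in osteoclasts at 138 and 139 CPM. Etfb was highest among them in osteoclasts of control callus at 155 CPM. In GC callus osteoclasts (93.1 CPM) and stromal cells (94.4 CPM) had overlapping Etfb intervals. In the 18 granulocyte-monocyte progenitors of control callus, a class not compared, the 3 electron transfer genes summed to 655 CPM, against 311 CPM in osteoclasts. The largest Etfb level of a compared class was in trabecular granulocyte-monocyte progenitors, at 564 and 615 CPM. Etfdh, the oxidoreductase that takes electrons from the flavoprotein, stayed at or under 28.7 CPM in every callus class with enough cells and was lowest in control chondrocytes among the skeletal classes (3.34 CPM, and 5.58 CPM with GC).

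The peroxisomal enzymes did not share 1 class pattern. Acox3, an acyl-CoA oxidase of branched chains, was highest in plasmacytoid dendritic cells of control callus (66.2 CPM) and immature neutrophils of GC callus (66.9 CPM), and low in osteoclasts (6.40 and 5.85 CPM) and chondrocytes (4.22 and 3.26 CPM). Hsd17b4, the peroxisomal D-bifunctional enzyme, was highest in macrophages of control callus (46.6 CPM), with 29.4 CPM in macrophages of GC callus. Acaa1a, the peroxisomal thiolase, was at 48.2 and 41.2 CPM in macrophages and 44.4 and 50.2 CPM in osteoclasts, against 3.90 and 5.70 CPM in mature neutrophils. In trabecular bone monocytes had the most Acaa1a (87.0 and 77.8 CPM) and Acox3 (40.7 and 42.7 CPM). Ehhadh, the L-bifunctional enzyme, was at 0.339 and 0.655 CPM over all callus cells and 0.117 and 0.213 CPM over all trabecular cells. Ppara, the receptor that drives these genes in liver, was at 0.0502 and 0.0727 CPM over all callus cells, had no UMI in control trabecular cells and was at 0.0267 CPM in GC trabecular cells. Ehhadh and Ppara never reached 50 UMIs over a GC and a control class of either tissue.

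**Figure D1:**
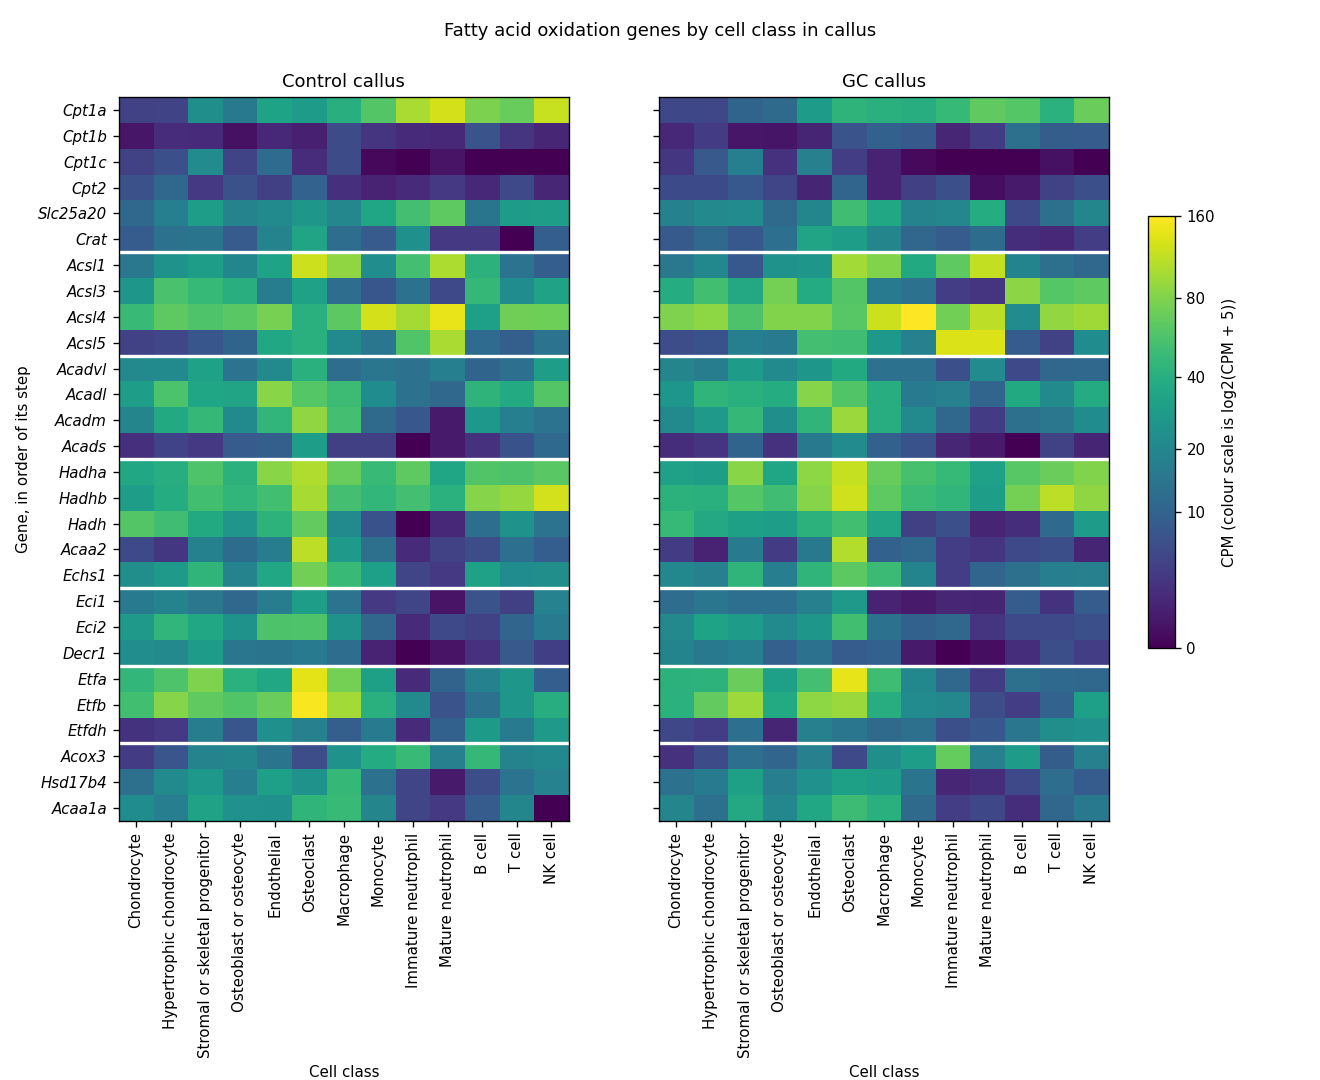
CPM of 28 members (rows, in order of their step; Ehhadh and Ppara left out) in 13 callus classes (columns) of the control and the GC library, on a log2 colour scale of CPM + 5. The osteoclast column is bright for Acaa2 (112 and 105 CPM) and Etfa (138 and 139 CPM) in both libraries, and the neutrophil columns are dark for Acadm, Hadh and Decr1.

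Osteoclasts ranked highest of the 17 callus classes for 11 members in control callus and for 11 in GC callus, and 9 of these were shared by both libraries. The same class ranked highest in both libraries for 15 members in callus and 14 in trabecular bone. Levels differed at least 4-fold between some pair of classes in both libraries for 20 members in callus and 12 in trabecular bone. These counts describe the members only: shares over all genes are not given, so none can be called particular to them.

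Osteoclasts arise from the same lineage as monocytes and macrophages, and the comparison of osteoclasts with mononuclear phagocytes within each callus library gave calls for most members. In control callus 18 of the 24 members with enough UMIs were higher in osteoclasts and 3 were lower, against 34.5% of all genes called higher and 23.0% lower. In GC callus 20 of 24 were higher and 2 lower, against 34.0% and 23.7% of all genes. The median log2 ratio of members was 1.19 and 1.18 in the control and GC libraries, against 0.20 and 0.16 over all genes. By role, 14 of 17 mitochondrial steps from the shuttle to electron transfer were higher in control callus and 15 of 17 in GC callus, whereas of 3 peroxisomal genes 1 was higher in control callus (Acaa1a) and 2 in GC callus (Hsd17b4 and Acaa1a).

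Acaa2 differed most among the called members. It went from 16.2 CPM in phagocytes to 112 CPM in osteoclasts of control callus, a ratio of 6.91 (95% interval, 5.11 to 9.51), and from 10.99 to 105 CPM in GC callus, a ratio of 9.54 (6.45 to 14.6). Hadh went from 9.98 to 65.9 CPM and from 10.2 to 52.2 CPM, ratios of 6.60 (4.48 to 10.0) and 5.10 (3.32 to 8.09). Both enzymes act in the last steps of a round of oxidation, and the levels in osteoclasts were above those in phagocytes in either library. Etfa was 3.43-fold and 5.24-fold higher. Acadm went from 20.0 to 87.8 CPM in control callus and from 25.0 to 92.1 CPM in GC callus.

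Acox3 and Acsl4 went the other way in both libraries. Acox3 was at 35.5 and 29.2 CPM in phagocytes and at 6.40 and 5.85 CPM in osteoclasts, a ratio of 0.180 in control callus. Acsl4 was at 114 and 169 CPM in phagocytes and at 40.7 and 61.4 CPM in osteoclasts. Cpt1a was lower in control osteoclasts only, at 0.530 of the phagocyte level.

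Genes outside the members moved with this difference. All 15 genes of the tricarboxylic acid cycle and mitochondrial mass list were higher in osteoclasts in both libraries, with a median log2 ratio of 2.23 and 2.50. Mitochondrially encoded UMIs made up 4.19% and 5.13% of osteoclast UMIs against 2.68% and 2.78% of phagocyte UMIs. Of 10 other oxidation genes with enough UMIs in control callus, 8 were higher and none was lower, including Abcd3, a peroxisomal transporter of fatty acids, and Hsd17b10, a mitochondrial dehydrogenase. Among uptake genes Fabp5, Slc27a1 and Lpl were higher and Cd36, Fabp4 and Plin2 lower in control callus. Ppargc1b and Esrra, which promote mitochondrial gene expression, were higher, and Ppard, Rxra and Nrf1 lower, in control osteoclasts. The class had UMIs for all 8 osteoclast markers, which summed to 10776 and 12684 CPM against 118 and 171 CPM in phagocytes. Cell cycle genes were also higher, at 489 and 342 CPM in osteoclasts against 111 and 50.8 CPM in phagocytes. The part of mitochondrial content and of cycling in the members' difference was not tested.

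**Figure D2:**
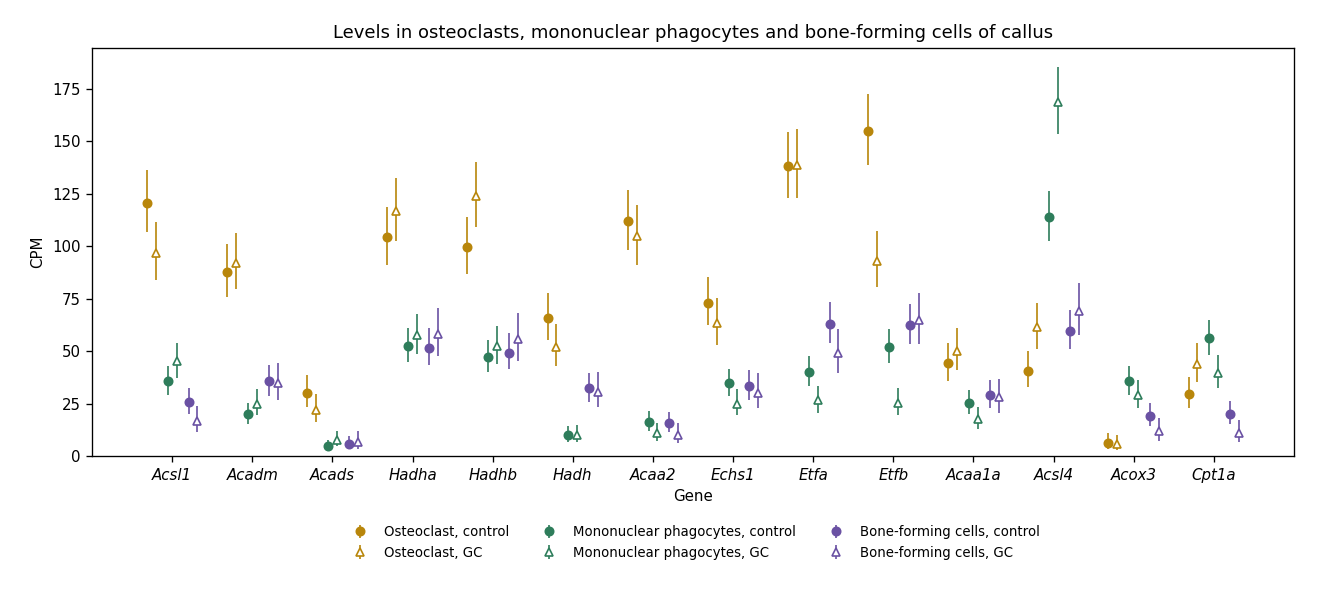
CPM (points) with exact 95% Poisson intervals (bars) for 14 members in osteoclasts, mononuclear phagocytes and bone-forming cells of the control (filled circles) and GC (open triangles) callus libraries. Osteoclast points lie above phagocyte points for genes such as Acaa2 (112 against 16.2 CPM in the control library) and below them for Acox3 and Acsl4.

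Osteoclasts also exceeded bone-forming cells. In control callus 16 of 25 members were higher and 1 was lower, against 32.5% and 27.5% of all genes, and in GC callus 16 of 22 were higher and none lower, against 37.2% and 23.5%. In both libraries 13 of 22 were higher. Acsl1 went from 25.6 CPM in bone-forming cells to 121 CPM in osteoclasts of control callus and from 16.8 to 97.0 CPM in GC callus.

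The study asked how fatty acid use differs between macrophages and bone-forming progenitors. In control callus, phagocytes had 4 members higher than bone-forming cells and 8 lower of 24 tested, against 25.5% of all genes higher and 33.4% lower. In GC callus 4 were higher and 7 lower of 20, against 31.1% and 29.7%. Lower calls were thus about as frequent among members as among all genes, and higher calls less frequent. The higher members in both libraries were Cpt1a, Acsl4 and Acox3, and the lower members in both were Acsl3, Acadvl, Hadh, Eci2 and Etfa.
Cpt1a went from 20.0 CPM in bone-forming cells to 56.1 CPM in phagocytes, a ratio of 2.80, in control callus and from 11.2 to 39.8 CPM, a ratio of 3.56, in GC callus. Acsl3 went from 43.7 to 8.73 CPM and from 55.9 to 14.0 CPM. Hadh went from 32.3 to 9.98 CPM and from 30.7 to 10.2 CPM. Among the mitochondrial steps Cpt1a was the 1 gene higher in phagocytes in either library, and 7 and 6 others were lower. The phagocytes were mostly monocytes, 606 and 581 cells in control and GC callus against 86 and 87 macrophages. Summed over the 21 mitochondrial genes, monocytes were at 413 and 349 CPM and macrophages at 659 and 565 CPM. Bone-forming cells were at 566 and 520 CPM, and were mixed as well. The stromal or skeletal progenitor cells among them were at 662 and 667 CPM and the osteoblasts at 438 and 385 CPM. The lower phagocyte levels therefore cannot be read as those of macrophages, which are not compared alone with bone-forming cells here. Of the synthetases, Acsl1 passed the limit in GC callus alone (16.8 to 45.1 CPM), and in control callus the values were 25.6 and 35.5 CPM. Whether the difference between phagocytes and bone-forming cells changed with GC was not tested.

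Within the phagocytes, macrophages were higher than monocytes for 8 of 16 members in control callus (2 lower; 23.5% and 17.3% of all genes) and for 7 of 13 in GC callus (none lower; 20.6% and 15.6%). Acsl1, Acadl, Acadm, Etfa and Etfb were higher in both. Acadm went from 11.7 CPM in monocytes to 52.8 CPM in macrophages of control callus and from 21.6 to 39.2 CPM in GC callus. Acsl1 went from 22.6 to 87.0 CPM and from 36.6 to 80.4 CPM. Macrophage classes held 86 and 87 cells.

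In the skeletal lineage, chondrocytes were lower than bone-forming cells for 11 of 28 members in control callus and higher for 1, Hadh (32.3 to 59.4 CPM), against 22.2% of all genes lower and 8.47% higher. In GC callus 9 of 28 were lower and none higher, against 20.0% and 11.1%. Cpt1a, Cpt1c, Acadm, Acaa2, Acox3 and Hsd17b4 were lower in both. Cpt1a went from 20.0 CPM in bone-forming cells to 4.87 CPM in chondrocytes of control callus and from 11.2 to 5.66 CPM in GC callus. Hypertrophic chondrocytes exceeded chondrocytes for Acadl (29.998 to 56.4 CPM, and 26.2 to 44.3 CPM with GC) and Etfb (52.0 to 82.3 CPM, and 41.3 to 66.6 CPM with GC) in both libraries. These were among 5 of 28 members higher in control callus (8.19% of all genes) and 3 of 28 in GC callus (6.96%), and no member was lower. Osteoblasts were lower than stromal cells for Acadm, Echs1 and Etfa in both libraries (5 of 19 members lower in control callus, 31.0% of all genes, and 6 of 11 in GC callus, 29.6%). Endothelial cells, 51 in control and 82 in GC callus, had more Acadl than bone-forming cells, 83.1 against 34.1 CPM and 82.2 against 39.7 CPM. The number of members called in that comparison and the shares of all genes are not given here.

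For GC against control, few members passed the limit in any skeletal or phagocyte class. Over all callus cells none of 29 members was called, against 1.69% of all genes higher and 1.54% lower. Sums by role did move below the limit. The 4 synthetases went from 121 to 164 CPM (1.35-fold, 1.31 to 1.39). The 3 isomerases and reductases went from 64.2 to 49.7 CPM (0.774, 0.738 to 0.811), and the 21 mitochondrial genes from 488 to 449 CPM. All 30 members summed to 655 and 656 CPM. The part of class composition in these sums was not tested. Over the callus classes, 170 member and class pairs had enough UMIs, 11 were higher and 15 lower with GC, and these concerned 11 members. In trabecular bone 15 of 157 pairs were higher and 20 lower, concerning 16 members. The all-cell shares are no background for these pairs, and shares of all genes within most classes are given below. Cpt1a, Acsl3 and Slc25a20 were called in 4 callus classes each.

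In callus phagocytes Etfb was the only one of 22 members called, against 8.53% of all genes higher and 7.67% lower. It went from 52.1 CPM (167 UMIs in 692 cells) to 25.4 CPM (67 UMIs in 668 cells), a ratio of 0.488 (0.362 to 0.651). Etfb was lower in monocytes (40.9 to 22.1 CPM), macrophages (96.4 to 39.2 CPM) and osteoclasts (155 to 93.1 CPM, a ratio of 0.601, 0.5004 to 0.719) as well. In chondrocytes it was at 52.0 and 41.3 CPM, within the limit, and in bone-forming cells at 62.3 and 64.8 CPM. Chondrocyte markers moved with the phagocyte value: all 14 had UMIs in phagocytes of both libraries, and their sum was 3654 CPM in control and 1240 CPM in GC phagocytes, and 2992 and 771 CPM in osteoclasts. Empty droplets of the control callus library held Etfb at 54.8 CPM. Immature neutrophil markers summed to 549 and 1208 CPM in these phagocytes, and cell cycle genes to 111 and 50.8 CPM. The part of these in the Etfb difference was not tested. In trabecular phagocytes Etfb went from 184 to 208 CPM.

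The rest of the callus phagocyte members lay within the limit. With cells called by the UMI cutoff only, which left 60 control phagocytes, 7 of 16 members were called. This cutoff applied to the control library alone, since the GC callus library was deposited with called barcodes only. With doublets kept or a lower UMI minimum 3 were called. Cpt1a was at 56.1 CPM in control and 39.8 CPM in GC phagocytes, Acsl4 at 114 and 169 CPM, and Acsl1 at 35.5 and 45.1 CPM. Monocytes and macrophages taken apart gave further calls. In monocytes Acsl1 (22.6 to 36.6 CPM) and Acadm (11.7 to 21.6 CPM) were higher and Slc25a20 (33.9 to 18.8 CPM) and Etfb lower among 18 members (10.2% and 8.93% of all genes). In macrophages Acsl4 was higher, from 63.7 to 122 CPM, and Etfb lower among 10 members (12.5% and 9.08% of all genes).

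In osteoclasts 2 of 24 members were higher and 2 lower with GC, against 5.24% and 5.14% of all genes. Slc25a20 went from 27.0 to 51.7 CPM (1.92-fold, 1.38 to 2.68) and Acsl3 from 32.0 to 59.5 CPM (1.86-fold, 1.37 to 2.53). Decr1 went from 16.5 to 8.78 CPM (0.533, 0.285 to 0.964). Slc25a20 thus differed in opposite directions in osteoclasts and monocytes of the same libraries, and the difference between those classes was not tested.

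In bone-forming cells 3 of 24 members passed, against 2.7% of all genes higher and 6.08% lower. Acsl5 was higher, from 8.90 to 16.8 CPM (1.88-fold, 1.06 to 3.37). Cpt1a was lower, from 20.0 to 11.2 CPM (0.558, 0.317 to 0.948), and Decr1 was lower, from 23.0 to 13.4 CPM (0.584, 0.348 to 0.949). All 3 intervals came close to 1, and the calls depended on the processing. The count went from 3 to 0 with a pseudocount of 20 CPM or with cells called by the UMI cutoff only, which applied to the control library alone. It went to 1 with median-ratio scaling, without cycling cells, with doublets kept or at either other clustering resolution. In the stromal cells among them Acsl1 went from 29.8 to 8.16 CPM (0.273, 0.104 to 0.610), whereas in osteoblasts it went from 19.9 to 24.7 CPM and was not called. Osteoblasts had more Acsl3 with GC (39.8 to 74.1 CPM), as did B cells (46.2 to 85.2 CPM) and T cells (22.2 to 60.5 CPM). Of the genes tested in osteoblasts, 5.82% were higher and 7.41% lower, against 1 and 0 of 8 members. In stromal cells 5.09% of all genes were higher and 9.7% lower, against 0 and 2 of 17 members (Acsl1 and Decr1), and in B cells 4.11% and 17.9%, against 1 and 1 of 8 members (Acsl3 higher and Acsl1 lower). Endothelial cells had 1 of 5 members higher, Hadhb, and none lower (7.42% and 8.41% of all genes). The osteoblast and stromal classes were small, with 107 and 81 stromal cells and 52 and 53 osteoblasts.

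In chondrocytes Acsl4 was the only one of 28 members called, from 47.8 to 78.8 CPM (1.65-fold, 1.55 to 1.75), against 2.04% of all genes higher and 2.33% lower. Different clusters held part of the chondrocytes in the 2 libraries: cluster 2 contained 13 control and 1152 GC cells. Without that cluster the log2 ratio went from 0.67 to 0.54 and was not called. In hypertrophic chondrocytes none of 28 members passed (3.24% and 2.95% of all genes), and Acsl4 was at 64.0 and 86.1 CPM.

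Among callus leukocytes Cpt1a was lower with GC in 4 classes. In mature neutrophils it went from 127 to 64.8 CPM (0.512, 0.399 to 0.652), in immature neutrophils from 101 to 46.8 CPM, in T cells from 67.9 to 41.4 CPM and in NK cells from 118 to 69.0 CPM. Acadl was lower in T cells as well, from 37.5 to 21.5 CPM. The mature neutrophils of the 2 libraries lay in different clusters, cluster 0 with 1385 control and 92 GC cells and cluster 1 with 175 control and 1118 GC cells. With clusters of almost 1 library left out, the Cpt1a log2 ratio in mature neutrophils changed sign, to 0.30. Cluster 1, the more evenly shared, held 175 control cells, so fewer control cells stood behind that value. Acsl5 was higher in immature neutrophils (58.7 to 132 CPM), and Slc25a20 was lower in mature neutrophils (64.8 to 38.5 CPM) and dendritic cells (271 to 102 CPM). In mature neutrophils 0 of 9 members were higher and 2 lower, against 13.7% and 13.4% of all genes, and in immature neutrophils 1 and 1 of 3, against 18.9% and 12.5%. In T cells 1 of 6 was higher and 2 lower, against 3.62% and 13.3%, and in NK cells 0 and 1 of 4, against 6.55% and 11.2%.

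**Figure D3:**
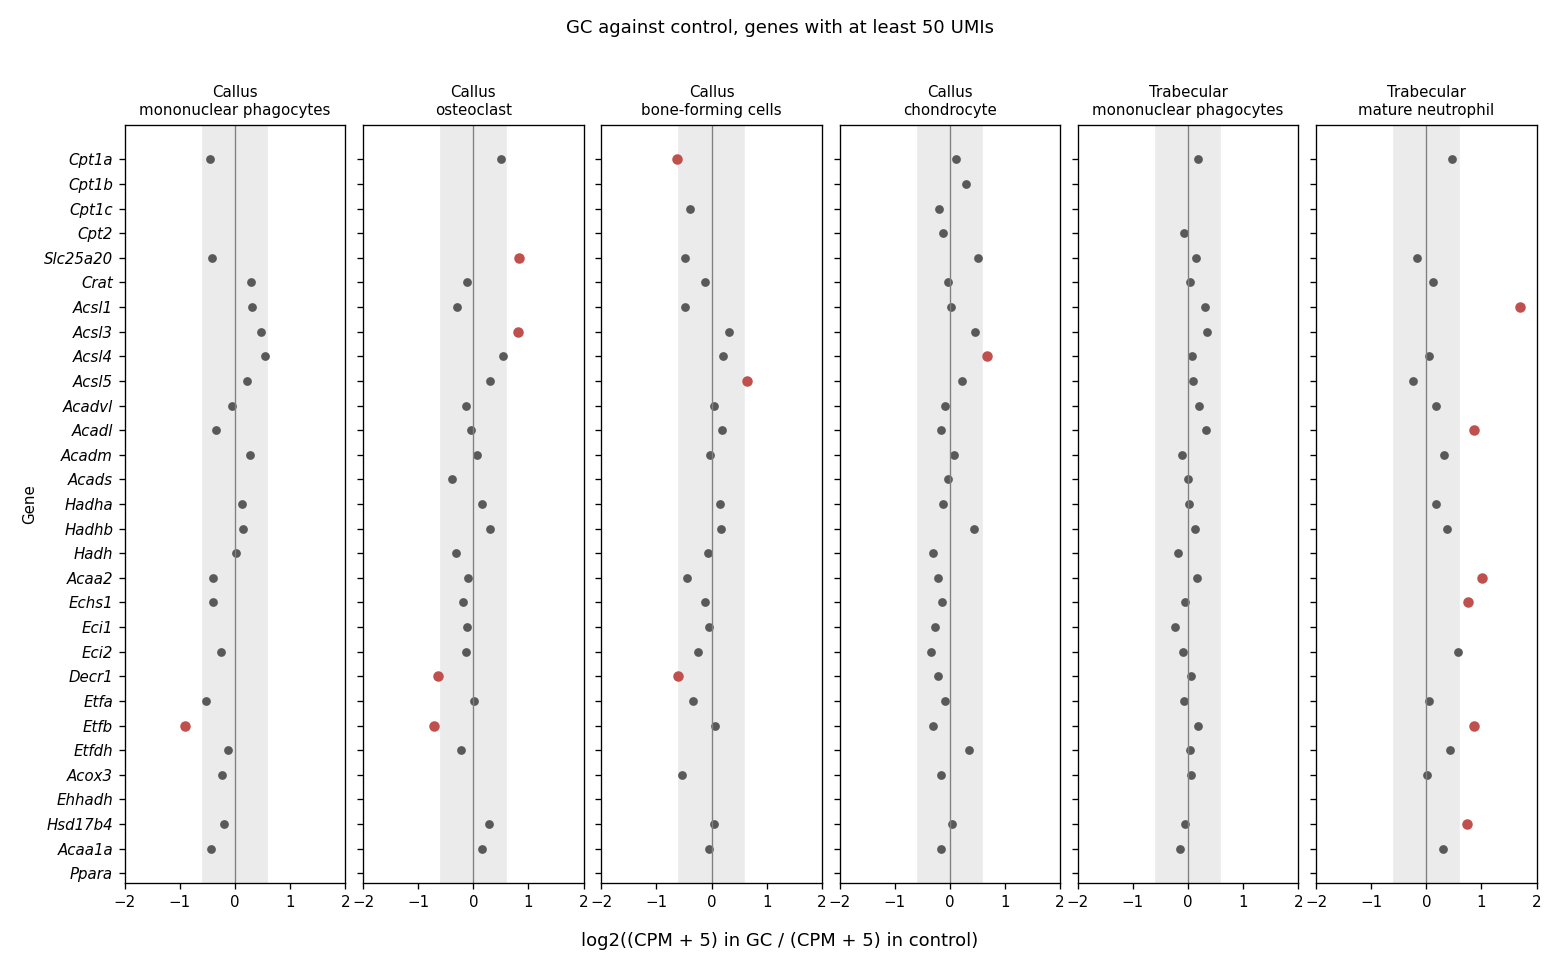
Log2 ratios of GC over control (CPM + 5; horizontal axis) of the members with at least 50 UMIs in 4 callus and 2 trabecular classes, with the range within 1.5-fold shaded and points past it in red. Few points are red: Etfb in callus phagocytes at -0.91 and Acsl1 in trabecular mature neutrophils at 1.70 lie farthest out in their classes.

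In trabecular bone no member was called in mononuclear phagocytes (26 tested; 1.44% of all genes higher and 2.14% lower) or in granulocyte-monocyte progenitors (26 tested; 0.783% and 0.97%). In the same phagocytes Fkbp5, a glucocorticoid-induced chaperone, went from 22.7 to 84.6 CPM. Cpt1a was at 68.2 and 77.998 CPM, Acsl1 at 48.9 and 61.8 CPM, and Acaa2 at 69.4 and 77.8 CPM.

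Among the trabecular granulocytes and monocytes, the calls lay in neutrophils. Over all trabecular cells Acsl1 alone of 27 members was called, from 78.1 to 124 CPM (1.58-fold, 1.51 to 1.66), against 1.51% of all genes higher and 1.83% lower. In mature neutrophils 6 of 20 members were higher and none lower, against 16.5% and 2.69% of all genes, and the member median log2 ratio was 0.35 against 0.27 over all genes. Acsl1 went from 56.6 to 195 CPM (3.44-fold, 3.11 to 3.81). Acaa2 went from 5.66 to 16.5 CPM and Echs1 from 4.27 to 10.7 CPM. Hsd17b4 (5.66 to 12.8 CPM), Etfb (14.8 to 31.2 CPM) and Acadl (24.7 to 49.4 CPM) were the others. In immature neutrophils Acadl was higher, from 55.0 to 99.002 CPM (1.80-fold, 1.62 to 2.00), among 24 members (2.36% of all genes).

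The mature neutrophils of the 2 trabecular libraries fell almost wholly into different clusters. Clusters 1, 2 and 6 held 626, 577 and 484 control cells and 44, 66 and 9 GC cells, and clusters 3, 5, 8 and 11 held 2 control cells and 639, 497, 427 and 336 GC cells. Summed mature neutrophil markers were at 360660 and 272134 CPM and immature neutrophil markers at 17430 and 27063 CPM in the control and GC class. With the clusters of almost 1 library left out (limit 10%), the log2 ratio of Acsl1 went from 1.70 to -0.42, that of Etfb to 0.40, and that of Acadl to 0.77. Over all trabecular cells that of Acsl1 went from 0.63 to 0.21. Cluster 2, the most evenly shared, held 66 GC cells, so the remaining mature neutrophil values rest on few GC cells. The state of the neutrophils and the treatment therefore cannot be told apart for these genes.

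Of the 20 trabecular pairs that were lower with GC, 9 were in erythroid cells and 10 in B cells. Hemoglobin made up 36.8% of erythroid UMIs in the control and 58.7% in the GC library, and 9 of 21 members were lower and none higher there, against 52.9% and 0.462% of all genes. GC B cells numbered 16 against 314 control cells, and 10 of 16 members were lower and 1 higher, against 50.3% and 12.5% of all genes. The higher member was Acsl3, at 37.0 and 60.2 CPM from 71 and 3 UMIs. In trabecular T cells, with 50 control cells, Acadl (34.0 to 56.2 CPM), Hadha (34.0 to 68.4 CPM) and Acaa2 (21.6 to 50.9 CPM) were higher and none lower of 6 members, against 12.1% and 11.6% of all genes. In mast cells or basophils Acadl was higher, from 91.1 to 140 CPM, as 1 of 2 members tested (9.19% of all genes). In hematopoietic progenitors, with 24 and 28 cells, Acadm (41.2 to 87.8 CPM), Acsl5 (34.3 to 65.8 CPM) and Acaa2 (48.0 to 79.3 CPM) were higher and Etfa lower (112 to 59.1 CPM) of 11 members, against 5.26% and 6.82% of all genes.

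Along the trabecular granulocyte lineage most members were lower in later stages. Immature neutrophils had 18 of 26 members lower than granulocyte-monocyte progenitors in control mice and 17 with GC, against 48.3% and 49.7% of all genes, and 2 and 5 higher, against 15.7% and 17.1%. The median log2 ratio was -0.94 and -0.84, against -0.54 and -0.58 over all genes. In mature neutrophils 19 and 17 of 26 were lower (54.0% and 48.9% of all genes) and 2 and 4 higher (22.8% and 24.8%). The genes of the mitochondrial comparison list went the same way, with 14 and 15 of 15 lower in mature neutrophils.

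Etfb went from 564 CPM in progenitors to 92.8 CPM in immature and 14.8 CPM in mature neutrophils of the control library, and from 615 to 84.1 and 31.2 CPM in the GC library. Echs1 went from 121 to 19.4 and 4.27 CPM, and with GC from 109 to 16.3 and 10.7 CPM. Hadh went from 49.8 CPM to 1.08 CPM and no UMI, and with GC from 53.0 to 1.30 and 0.358 CPM. These are enzymes and electron carriers of the mitochondrial round. Slc25a20 and Acox3 went the other way: in the control library Slc25a20 was at 12.1, 22.5 and 41.1 CPM, and Acox3 at 15.2, 25.3 and 27.4 CPM. Acaa1a, the peroxisomal thiolase, dipped in the middle stage, at 50.05, 23.8 and 44.1 CPM in the control and 47.4, 29.7 and 55.6 CPM in the GC library. Of the peroxisomal genes, Hsd17b4 alone was lower in mature neutrophils in both libraries.

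**Figure D4:**
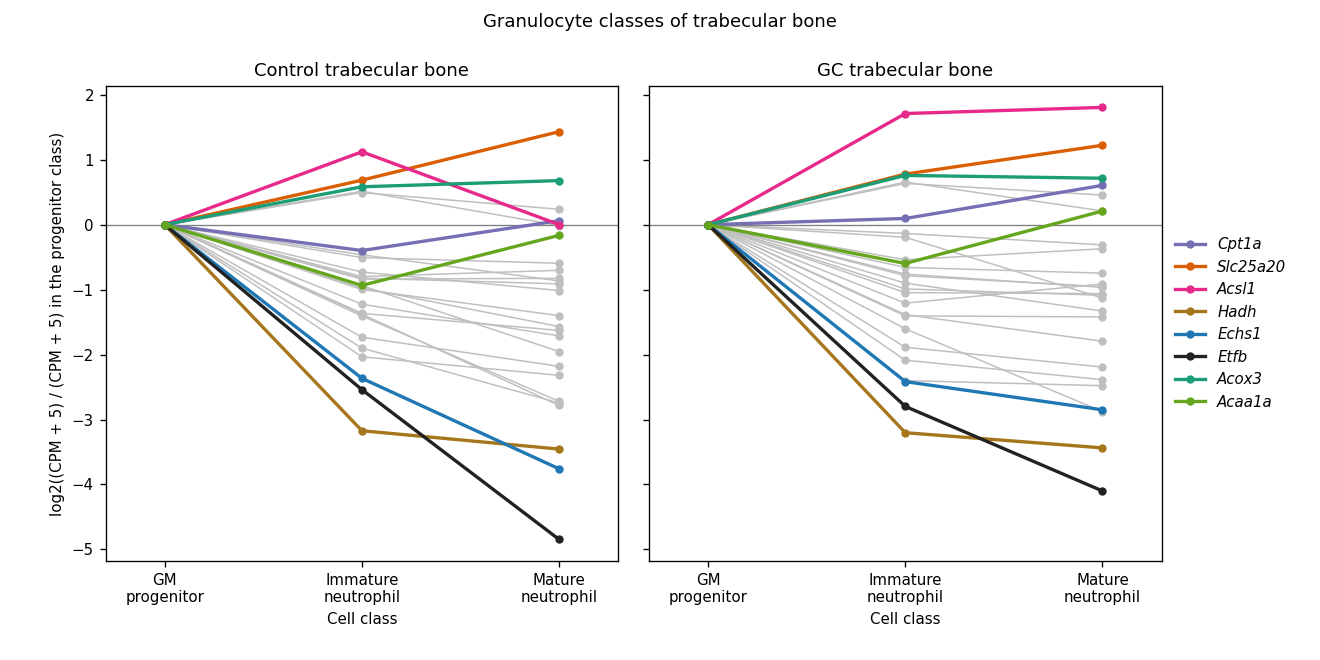
Log2 of CPM + 5 of each member relative to granulocyte-monocyte (GM) progenitors, in immature and mature neutrophils of the control and GC trabecular libraries, with 8 genes coloured and the others in grey. Most lines slope down (Etfb from 564 to 14.8 CPM in the control library), and those of Slc25a20 and Acox3 slope up.

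Monocytes of the same marrow differed from the progenitors in another way. Cpt1a, Slc25a20, Crat, Acsl4, Acox3 and Acaa1a were higher and Decr1 and Etfb lower in both libraries (7 higher and 2 lower of 26 in the control, 33.4% and 12.7% of all genes, and 7 and 4 in the GC library, 30.8% and 13.7%). Cpt1a went from 24.8 to 68.2 CPM and from 23.2 to 77.998 CPM. In callus, mature neutrophils had more Cpt1a, Slc25a20, Acsl1 and Acsl5 than phagocytes in both libraries, with Acsl5 at 101 against 16.2 CPM and 132 against 19.7 CPM. Acadl, Acadm, Echs1, Etfa, Etfb and Acaa1a were lower in both. In control callus 4 of 19 members were higher and 10 lower (19.6% and 43.3% of all genes), and in GC callus 4 of 16 were higher and 8 lower (20.0% and 45.9%).

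Phagocytes of the callus had less of most oxidation genes than phagocytes of trabecular bone. In control mice 16 of 25 members were lower in callus and 1 was higher, against 35.1% of all genes lower and 19.3% higher, with a median log2 ratio of -1.01 against -0.23 over all genes. With GC 16 of 25 were lower and 1 higher, against 35.5% and 24.6%, with a median of -0.97 against -0.20. In both treatments 15 members were lower. Of the mitochondrial steps 13 of 18 were lower in either treatment, and of 3 peroxisomal genes Hsd17b4 and Acaa1a were lower.

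Etfb was at 184 CPM in trabecular and 52.1 CPM in callus phagocytes of control mice, a ratio of 0.283, and at 208 and 25.4 CPM with GC, a ratio of 0.122. Acaa2 was at 69.4 and 16.2 CPM (0.234), and at 77.8 and 10.99 CPM with GC (0.141). Acsl4 was the one member higher in callus, at 31.8 CPM in trabecular and 114 CPM in callus phagocytes of control mice (3.59-fold, 2.93 to 4.41) and at 33.8 and 169 CPM with GC (4.99-fold). Cpt1a was at 68.2 and 56.1 CPM in control mice, within the limit.

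The classes under this comparison were not alike. Cell cycle genes summed to 1422 and 1608 CPM in trabecular and to 111 and 50.8 CPM in callus phagocytes, and macrophage markers to 802 and 834 CPM in trabecular and 3522 and 3550 CPM in callus. The mitochondrial comparison list was lower in callus for 13 and 12 of 15 genes, and uptake genes went the other way, with Cd36, Fabp5, Slc27a1 and Lpl higher in callus in both treatments. The part of cell stage in the members' difference was not tested, and tissue, library and fracture cannot be told apart. Acsl4 was also higher in callus mature neutrophils, at 143 against 19.2 CPM and at 111 against 20.1 CPM, whereas Acaa1a was lower there, at 3.90 against 44.1 CPM and at 5.70 against 55.6 CPM.

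**Figure D5:**
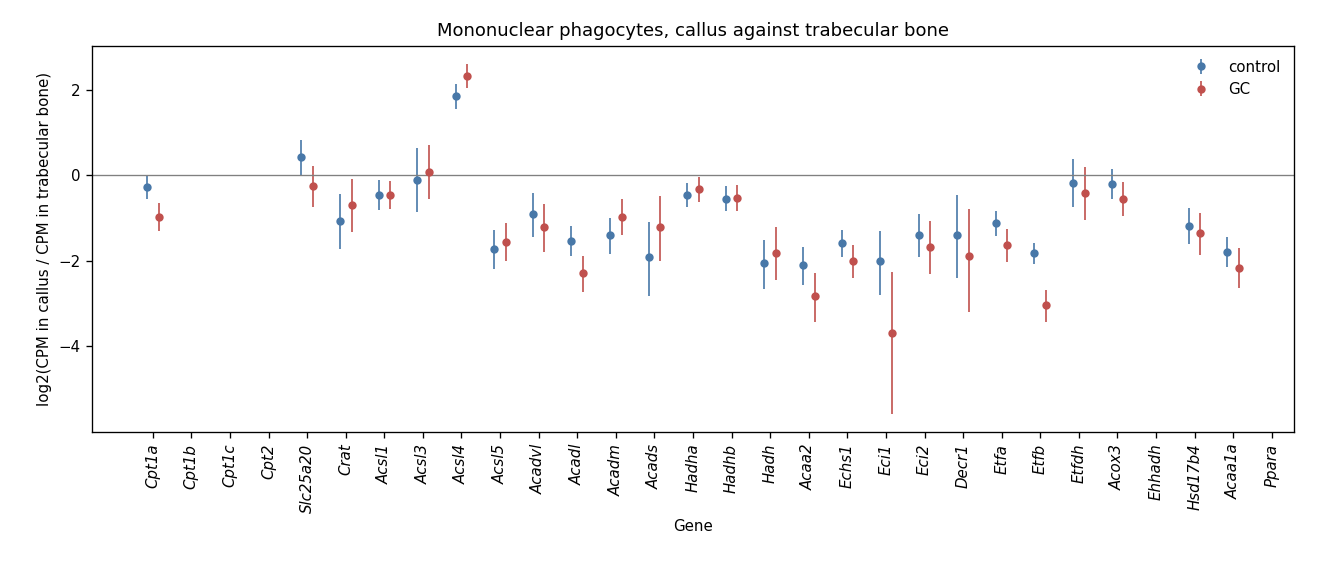
Log2 ratio of CPM in callus over trabecular mononuclear phagocytes with exact 95% intervals, for the control and the GC libraries. Most members lie below 0, Etfb and Acaa2 among the lowest, and Acsl4 lies above 0 in both.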

How the data were processed

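The data were single-cell RNA-seq counts of 4 libraries, 1 per group. Per the submitters' processing notes the authors used Cell Ranger 5.0.1 and Seurat 3.2.0 with mm10, whereas the file headers name Cell Ranger 4. The deposited files hold UMI counts per gene and barcode, not normalized. The authors' cell labels were not used here.

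Cells were called with a UMI cutoff (10% of the 99th percentile of the top 3000 barcodes) plus a multinomial test against barcodes ranked 45001 to 90000 (10000 draws, false discovery rate 0.01, at least 500 UMIs). The GC callus library was deposited with 7762 barcodes already called. Cells had at least 200 genes and at most 10% mitochondrial UMIs, and 405, 428, 125 and 183 predicted doublets (0.8% per 1000 cells) were removed from control callus, GC callus, control trabecular and GC trabecular bone. Median UMIs per cell were 4162, 3280, 6280.5 and 5611.5 in that order. Each tissue was clustered (2000 variable genes, 30 components, 15 neighbours, Leiden resolution 1) without 96 genes, namely the members and related lists. A cluster took the class, of 25 with 210 markers, with the highest mean log2 fold among those with at least 3 markers 2-fold over the median cluster and in 10% of cells. This naming rule was written with the clusters already known. Classes with at least 15 cells in both libraries were compared. The members and lists were chosen with earlier results of these data known.

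Counts were summed per class and library. Genes with at least 50 UMIs over both sides were compared as log2 ratios of CPM + 5 and called past 1.5-fold. With 1 library per group no test was run. Every member was to be named, with values in full for those called. Called genes of the other lists are named for some classes only. Free RNA was estimated from chondrocyte markers in lymphocytes (callus) and S100a8 and S100a9 in B and T cells (trabecular bone), against empty droplets. Alternatives covered the pseudocount, UMI minimum, call limit, scaling, thinning to 1000 UMIs per cell, cell and doublet filters, clustering, cycling cells and free RNA. Scripts were tested on simulated data. Clustering used igraph 0.11.9, leidenalg 0.10.2 and scikit-learn 1.9.0, cell calling numba 0.67.0, statistics scipy 1.17.1 and numpy 2.4.6, tables pandas 2.3.3 and figures matplotlib 3.10.9, under Python 3.11.15.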

Additional observations from a re-analysis of the deposited data

Results flagged for a closer look

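GC-over-control differences pointed in opposite directions in callus and trabecular bone, each beyond counting error, for 11 gene and class pairs. With 1 library per group none of these differences between tissues was tested. No share over all genes is given beside the count, so it cannot be read as particular to the members. The values are the log2 ratio of GC over control (CPM + 5) in callus minus that in trabecular bone.

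Over all cells the difference was -0.23 for Cpt1a, 0.73 for Acsl3, 0.63 for Acsl4, 0.57 for Acsl5, -0.53 for Acadl, -0.38 for Acaa2 and -0.52 for Etfb. All-cell values also move with the shares of the classes in each library.

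Cpt1a differed by -1.45 in immature neutrophils, where it went from 101 to 46.8 CPM in callus and from 17.6 to 25.1 CPM in trabecular bone. In mature neutrophils it differed by -1.38, going from 127 to 64.8 CPM in callus and from 26.1 to 37.8 CPM in trabecular bone. With the clusters of almost 1 library left out, the callus value of the mature neutrophils turned to 0.30.

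Etfb differed by -1.09 in mononuclear phagocytes (52.1 to 25.4 CPM in callus and 184 to 208 CPM in trabecular bone) and by -0.94 in monocytes (40.9 to 22.1 CPM in callus). The trabecular phagocytes were monocytes only, so these values share their trabecular side.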

How the results depend on the processing

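With 1 library per group, no library could be left out in turn. No paired analysis was possible because the groups share fewer than 2 replicate numbers and no test was run. Of 395 counts of members under an alternative, over 23 comparisons, 315 stayed within 1.5 times the reported count and 80 did not. A similar count need not hold the same members. Leaving out clusters of almost 1 library kept 10 of 19 reported calls, the UMI cutoff only 156 of 179 and thinning 48 of 188. Of 3125 member log2 ratios under an alternative, 3118 kept their direction and 7 turned. Of those kept, 2928 moved by no more than the mean reach of their 95% counting interval to either side, and 190 by more. Leaving out cycling cells, leaving out clusters of almost 1 library, and all alternatives for classes beyond phagocytes, bone-forming cells and chondrocytes were chosen after seeing the data. Free RNA was not subtracted in callus GC over control, since the GC callus library lists no empty droplets. That library also had no UMI cutoff. In callus GC over control, the alternative with the UMI cutoff only therefore applied to the control library alone.

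For GC over control in callus phagocytes, where 1 member was called, the count was 2 with a pseudocount of 1 CPM or the mean over cells, 3 with a minimum of 20 UMIs, with no minimum or with doublets kept, 7 with the UMI cutoff only and 0 at 2-fold. For bone-forming cells (3 called) it was 0 with a pseudocount of 20 CPM, at 2-fold or with the UMI cutoff only, and 1 with median-ratio scaling, without cycling cells, with doublets kept or at Leiden resolution 0.5 or 2. For chondrocytes (1 called) it was 4 with a pseudocount of 1 CPM or after thinning, 5 with the mean over cells, 2 with the UMI cutoff only or at resolution 0.5, and 0 with a pseudocount of 20 CPM, at 2-fold or without clusters of almost 1 library. For hypertrophic chondrocytes (0) it was 3 with a pseudocount of 1 CPM and 1 with a minimum of 500 genes. For osteoclasts (4) it was 0 at 2-fold. For callus mature neutrophils (2) it was 1 with a pseudocount of 20 CPM, 5 with a minimum of 20 UMIs, 6 with none and 0 at 2-fold. Over all callus cells (0) it was 1 with a pseudocount of 1 CPM, with the mean over cells or without clusters of almost 1 library, and 2 after thinning or with the UMI cutoff only.

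For trabecular phagocytes (0) it was 2 without cycling cells. For trabecular mature neutrophils (6) it was 2 with a pseudocount of 20 CPM, with median-ratio scaling, at 2-fold or without clusters of almost 1 library, and for immature neutrophils (1) 2 with the mean over cells, the UMI cutoff only or no genes left out of clustering, and 0 at 2-fold. Over all trabecular cells (1) it was 0 with a pseudocount of 20 CPM, at 2-fold, without clusters of almost 1 library or with the UMI cutoff only, 2 without cycling cells and 3 after thinning.

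Thinning left few members with 50 UMIs. It took osteoclasts over phagocytes from 21 and 22 calls (control and GC) to 2 and 2, phagocytes over bone-forming cells from 12 and 11 to 0 and 1, callus over trabecular phagocytes from 17 and 17 to 5 and 3, mature neutrophils over progenitors from 21 and 21 to 5 and 10, and callus mature neutrophils over phagocytes from 14 and 12 to 4 and 4. Phagocytes over bone-forming cells gave 6 and 7 with a pseudocount of 20 CPM and 4 and 7 at 2-fold. Callus mature neutrophils over phagocytes with GC gave 5 with a pseudocount of 20 CPM, 19 with no minimum and 6 at 2-fold. Hypertrophic over other chondrocytes went from 5 in control callus to 12 and 2 with pseudocounts of 1 and 20 CPM, 3 with median-ratio scaling or resolution 0.5 and 0 at 2-fold, and from 3 in GC callus to 6 and 0 with those pseudocounts, 0 at 2-fold and 1 with median-ratio scaling, a minimum of 500 genes, doublets kept, resolution 2 or no genes left out of clustering. The cause of the other shifts was not tested.

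The direction turned for 7 values. With the UMI cutoff only, Acadm in phagocytes over bone-forming cells of control callus went from -0.70 to 0.40 and Acaa1a in osteoclasts over phagocytes from 0.71 to -0.0055. Without clusters of almost 1 library, Cpt1a in callus mature neutrophils went from -0.91 to 0.30 and Acsl1 in trabecular mature neutrophils from 1.70 to -0.42 for GC over control. With a minimum of 500 genes, Acsl3 in hypertrophic over other chondrocytes went from 0.92 to -0.066. With median-ratio scaling, Acsl5 and Acadvl in mature neutrophils over progenitors of the control library went from -0.83 to 0.076 and from -0.59 to 0.20. The cause was not tested. Low members such as Ehhadh, Ppara and Cpt1b had few UMIs in most classes, and the part of depth in this was not tested.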

Other observations

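Genes next to the oxidation pathway, from the related lists, were also compared between GC and control. Called genes are named for some lists and classes only, so a gene not named may still have been called. In callus bone-forming cells 3 of 6 uptake and handling genes with enough UMIs were lower with GC and none higher, in a comparison that called 6.08% of all genes lower and 2.7% higher. Fabp5, a fatty acid binding protein, went from 191 to 28.5 CPM (ratio 0.149, 95% interval 0.109 to 0.199), Lpl, which releases fatty acids from circulating lipoproteins, from 105.7 to 36.9 CPM, and Plin2, a lipid droplet coat protein, from 34.5 to 15.6 CPM. Of 6 regulators, Pdk4, which restrains pyruvate oxidation, was higher (10.0 to 24.6 CPM) and Nrf1 (23.4 to 10.1 CPM) and Angptl4 (36.3 to 20.1 CPM) were lower. Chondrocytes had 12 uptake and handling genes with enough UMIs, of which Fabp5 was lower (97.9 to 52.9 CPM) and Fabp4 higher (4.20 to 14.9 CPM), against 2.33% and 2.04% of all genes. In osteoclasts Fabp5 was lower too, from 746 to 470 CPM, and Acad10 was higher and Acot13 lower among 13 other oxidation genes, against 5.24% of all genes higher and 5.14% lower. None of the 15 genes of the mitochondrial comparison list was called in any of these 3 classes. In endothelial cells 4 of 6 uptake and handling genes were higher with GC (Cd36, Fabp4, Lpl and Mgll) and 2 lower (Fabp5 and Plin2). The list summed to 3353 CPM in control and 5976 CPM in GC endothelial cells. Of 7 in monocytes Slc27a1 was higher and Plin2 lower, and of 6 in macrophages none was called. Shares of all genes called in these further classes are given above.

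In trabecular phagocytes, where no member was called, Fabp4 went from 2.17 to 16.9 CPM and Acot1, an acyl-CoA thioesterase, from 6.75 to 15.7 CPM, each 1 call, of 8 uptake and of 15 other oxidation genes (1.44% of all genes higher). In trabecular mature neutrophils Pnpla2, the triglyceride lipase that frees fatty acids from droplets, went from 42.5 to 189 CPM, Acot1 from 4.85 to 18.9 CPM and Ucp2, a mitochondrial carrier, from 342 to 796 CPM, where 16.5% of all genes were higher. The control and GC neutrophils lay in different clusters for these genes as well. How many genes of the related lists were tested, higher or lower in this class is not given here. The values of Pnpla2, Acot1 and Ucp2 therefore describe these genes only. Control and GC sums were 641 and 868 CPM for uptake and handling, 403 and 447 CPM for other oxidation, and 403 and 866 CPM for regulators.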
